A study of Mus musculus with 6 samples.

Results

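The 39 genes described here make the proteins that copy DNA in S phase, the stage of the cell cycle in which a cell duplicates its genome. They were chosen by their known roles, with earlier results of these data known, and matched by gene symbol. All 39 were found among the 24532 genes of the deposited table. Each was abundant enough to be tested, as were 14415 genes in all. The livers came from wild-type C57BL/6 mice, and all 6 animals were fed DDC, short for 3,5-diethoxycarbonyl-1,4-dihydrocollidine, at 0.1% of the diet for 4 weeks. This compound blocks heme synthesis and injures bile ducts, and is used to model cholestatic liver injury. In the last 2 weeks 3 mice were injected with rhCYGB, the recombinant human form of the globin cytoglobin, at 2 mg/kg 2 times a week, and 3 mice received normal saline, the vehicle, in its place. Tissue was taken 2 days after the last dose. Neither group was on a normal diet, so the comparison is between injections within one injury model, and the labels used here give no age, sex, litter or batch.

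Replication begins in G1, when the origin recognition complex, Cdc6 and Cdt1 load the ring of Mcm2 to Mcm7 onto DNA as an inactive helicase. At S phase entry cyclin E kinase activity and Cdc45 with the GINS complex turn that ring into a moving helicase, and polymerases follow it on a sliding clamp made of Pcna. Hepatocytes of the adult liver are mostly quiescent and re-enter the cycle after injury, and many replication genes are then switched on together by E2F transcription factors, which bind short words in their promoters.

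Promoters were examined first, because they show what the group shares apart from its function. RefSeq (GRCm38.p6) sequences that span 250 bases before to 50 bases after a start site were at hand for 32 of the 39 genes. The words TTTCCCGC, TTTGGCGC, TTTCGCGC and TTTGCCGC, spellings of the E2F site, were searched on both strands. At least 1 of them stood in 14 of the 32 genes (43.8%), against 4.36% of the 10992 tested genes with such a sequence and 2.26% of all 32851 promoters in the table. A window at the start of the gene as deposited was present for 26 of the 39, and 9 of these held a word in it, while 5 members (Cdc6, Mcm3, Mcm7, Lig1 and Uhrf1) held a word only in a window at another start site. Mcm6, Mcm5 and Gins3, whose windows lie at the deposited start, are printed as promoters with several words, with a pair of overlapping words and with a single word. Tk1 is printed as a member that holds none. It was picked for its values, which differed in direction from theirs, and is not typical. Of the 18 members with a sequence and no word, 14 were lower with rhCYGB. Capitals mark the E2F words, and each sequence reads 5′ to 3′ on the strand of its gene. The Mcm6 window lies at chr1:128359656-128359955 on the minus strand and has words that begin at positions -110, -106 and -47 from the start site, the first pair of which overlap.
Mcm6: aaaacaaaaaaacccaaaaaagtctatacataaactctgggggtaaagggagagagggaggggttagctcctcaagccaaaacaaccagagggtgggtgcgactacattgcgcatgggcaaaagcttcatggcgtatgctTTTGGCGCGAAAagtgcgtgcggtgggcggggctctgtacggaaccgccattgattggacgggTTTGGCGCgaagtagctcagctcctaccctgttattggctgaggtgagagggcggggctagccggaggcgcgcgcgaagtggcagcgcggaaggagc
The Mcm5 window, chr8:75109259-75109558 on the plus strand, has overlapping words at -153 and -149.
Mcm5: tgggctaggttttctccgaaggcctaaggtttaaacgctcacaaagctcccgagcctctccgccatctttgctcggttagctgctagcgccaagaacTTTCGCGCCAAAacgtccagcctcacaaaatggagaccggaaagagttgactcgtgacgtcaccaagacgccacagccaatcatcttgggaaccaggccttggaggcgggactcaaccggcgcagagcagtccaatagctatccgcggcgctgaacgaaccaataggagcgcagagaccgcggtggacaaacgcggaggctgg
The Gins3 window, chr8:95633309-95633608 on the plus strand, has 1 word, at -41, in the reverse orientation.
Gins3: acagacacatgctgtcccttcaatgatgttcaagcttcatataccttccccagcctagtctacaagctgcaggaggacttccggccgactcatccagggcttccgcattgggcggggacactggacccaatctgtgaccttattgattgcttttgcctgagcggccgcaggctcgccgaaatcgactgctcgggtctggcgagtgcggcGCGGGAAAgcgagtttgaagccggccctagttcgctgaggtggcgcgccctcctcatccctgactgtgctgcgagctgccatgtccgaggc
The Tk1 window, chr11:117825965-117826264 on the minus strand, has no such word within these 300 bases.
Tk1: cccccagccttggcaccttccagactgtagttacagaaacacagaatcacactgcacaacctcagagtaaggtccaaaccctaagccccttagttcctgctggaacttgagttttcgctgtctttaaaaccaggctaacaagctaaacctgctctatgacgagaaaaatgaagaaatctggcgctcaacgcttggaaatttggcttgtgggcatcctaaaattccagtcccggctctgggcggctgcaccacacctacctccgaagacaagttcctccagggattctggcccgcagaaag
A match is a description of the letters and not a measured binding site. Other words were spread in another way. CCAAT, which NF-Y binds, occurred in 59.4% of the replication genes, in 88.2% of the 17 mitosis genes with a sequence and in 42.7% of the tested genes, and TTTGAA, the core of the cell cycle homology region found in promoters of mitotic genes, occurred in 12.5% of the replication genes, 70.6% of the mitosis genes and 14.6% of the tested genes.

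Liver RNA was measured by paired-end sequencing of libraries from a stranded mRNA kit, and the labels give each mouse its own animal number. The number of vehicle 1 lies well below the others, which lie close together, and the labels do not say what sets it. Libraries held 59739026 to 72431373 estimated counts with rhCYGB and 58422095 to 66174274 with vehicle. Levels are given as CPM (a gene's share of the estimated counts of its library, scaled by TMM, the trimmed mean of M values), and levels of different genes are set side by side only as TPM, which is per transcript length. All 8 hepatocyte markers were detected in every library. The libraries did not separate by group: on the first principal component rhCYGB 1 (-43.5) lay among the vehicle libraries (-68.0, -15.1 and -24.1), while rhCYGB 2 (55.3) and rhCYGB 3 (95.5) lay apart. They also differed by transcript length, with log2 deviations per doubling of length of 0.21, -0.31 and -0.29 with rhCYGB and 0.35, -0.02 and 0.05 with vehicle. In bulk tissue, fewer dividing cells and less RNA per cell cannot be told apart.

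Most replication genes had lower values with rhCYGB, and none passed the test. By edgeR's quasi-likelihood test with Benjamini-Hochberg adjustment over all genes, 0 of the 39 were called, beside 0% of all genes, with no adjusted p below 0.523. The count with an unadjusted p under 0.05 was also 0 of the 39, against 8.12% of all genes in either direction and 2.06% in the lower one. DESeq2 called 0 of the 39 and 3.28% of the genes to which it gave an adjusted p, and it gave none to the 39. Its unadjusted p was under 0.05 for 6 of the 39, all lower, against 2.83% of all genes, and limma-voom called 0 without sample weights and 2 with them, where it called 30.6% of all genes. Without rhCYGB 1, edgeR called 23.2% of all genes and 4 of the 39 (Orc1, Mcm10 and Pola1 lower, Tk1 higher), with an unadjusted p under 0.05 for 8 of the 39 and 42% of all genes, and without any other single library it called none of the 39. The fitted value was lower with rhCYGB in 34 of the 39 (87.2%), against 53.2% of all genes. The median log2 fold change was -0.86, against -0.06 over all genes, and single genes ran from -2.58 (Cdc6) to 0.81 (Tk1). Values were lower by 2-fold or more in 14 of the 39 (35.9%), against 6.51% of all genes. The 3 rhCYGB libraries all lay below the 3 vehicle libraries for 5 genes (Cdc6, Mcm2, Mcm3, Gins3 and Prim2; 12.8%, against 7.38% of all genes), and for 0 genes did they all lie above (against 6.02% of all genes). With 1 library fewer that count was 14 without rhCYGB 1 (13 of them lower, against 34.5% of all genes), 21 without rhCYGB 2 (all lower, against 11.2%), 14 without vehicle 2 (all lower, against 11.9%), 5 without rhCYGB 3 (against 9.04%), 5 without vehicle 1 (against 10.3%) and 6 without vehicle 3 (against 11%), all of them lower.

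Single libraries set most of this difference. Vehicle 1 held the highest value of 30 of the 39 genes (76.9%, against 28.8% of all genes), and rhCYGB 3 held the lowest value of 33 (84.6%, against 33.5%). The median deviation of the 39 genes from their 6-library means, on the log2(CPM + 0.5) scale, was -0.10, 0.24 and -1.28 in rhCYGB 1 to 3 and 1.10, -0.01 and 0.22 in vehicle 1 to 3. Thus 4 of the 6 libraries lay within 0.24 of the mean, and the outer pair consisted of 1 low rhCYGB and 1 high vehicle mouse. The mean of rhCYGB 1 and 2 exceeded rhCYGB 3 by a median of 2.85-fold over the 38 genes above 0, most in Uhrf1 (25.7-fold), and vehicle 1 exceeded the mean of the other vehicle mice by a median of 2.00-fold, most in Cdc6 (6.37-fold). With both of these libraries left out, an alternative chosen after seeing the data, 22 of the 39 genes were lower and 17 higher with rhCYGB, and 43.2% of all genes were lower. The median was then -0.13, against 0.06 over all genes, with a range from -0.58 (Cdc6) to 0.73 (Tk1) and 0 genes called by edgeR. Without rhCYGB 3 alone the median was -0.51, and without vehicle 1 alone it was -0.45.

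**Figure D1:**
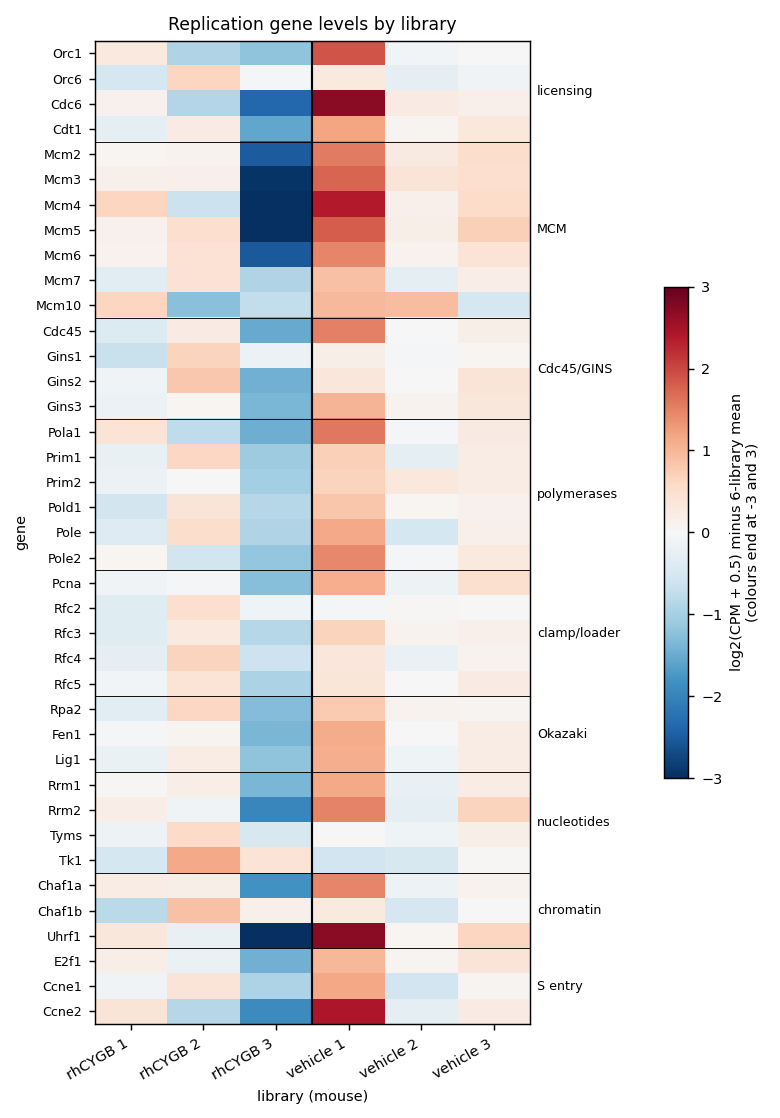
Level of each of the 39 replication genes (vertical axis, by role) in each mouse (horizontal axis, rhCYGB left of vehicle), as log2(CPM + 0.5) minus the mean of the 6 libraries. The rhCYGB 3 column is the lowest for 33 genes and the vehicle 1 column the highest for 30.

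Among origin licensing genes, Cdc6 and Orc1 had large differences at low levels, and Orc6 had a small difference. Cdt1, which brings the helicase ring to the origin (gene 67177, chr8:122568015-122573130), stood at 9.67, 13.8 and 3.64 CPM with rhCYGB and at 27.2, 12.3 and 14.8 CPM with vehicle. Its groups overlapped, since rhCYGB 2 exceeded vehicle 2, and vehicle 1 was well above all others. Means were 9.05 ± 5.13 with rhCYGB and 18.1 ± 7.95 CPM with vehicle (SD, n = 3 each, as for every mean given), with a log2 fold change of -0.997 (SE 0.53, edgeR adjusted p = 0.523). Cdc6, the ATPase that loads the ring together with Cdt1 (gene 23834, chr11:98907889-98923942), had 3.04, 1.24 and 0.133 CPM with rhCYGB and 20.4, 3.32 and 3.08 CPM with vehicle. All rhCYGB values lay below all vehicle values, though rhCYGB 1 and vehicle 3 were nearly level. Its fold change, named after its values were seen, was the largest of the 39 at -2.58 on the log2 scale (SE 1.13, edgeR adjusted p = 0.523), and -0.58 without rhCYGB 3 and vehicle 1. Orc1, the ATPase of the origin recognition complex, was at 0.912, 0.111 and 0 CPM with rhCYGB and at 3.75, 0.582 and 0.642 CPM with vehicle. The 0 in rhCYGB 3 allows up to 0.0797 CPM at 3 counts, a limit that covers counting error only. Orc6, the small subunit of the same complex (gene 56452, chr8:85299632-85308279), ran the other way at 6.45, 15.2 and 9.35 CPM with rhCYGB and 11.8, 7.87 and 8.87 CPM with vehicle. Its log2 fold change of 0.12 (SE 0.37, edgeR adjusted p = 0.875) was below 0 with upper-quartile factors (-0.02), library totals (-0.54), TPM and the length trend removed (-0.12).

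The MCM helicase was the role group in which rhCYGB 3 stood farthest from the rest. All 7 members were lower with rhCYGB, with a median log2 fold change of -1.30, and all 7 were highest in vehicle 1. Library medians were 0.13, 0.14 and -2.51 with rhCYGB and 1.56, 0.18 and 0.52 with vehicle, so that rhCYGB 1 and 2 were level with vehicle 2. Mcm6, which with Mcm2 to Mcm5 and Mcm7 forms the ring (gene 17219, chr1:128331575-128359705), measured 41.8, 53.0 and 6.45 CPM with rhCYGB and 108, 42.2 and 52.5 CPM with vehicle. The rhCYGB 2 value exceeded those of vehicle 2 and 3. Its means were 33.8 ± 24.3 with rhCYGB and 67.6 ± 35.6 CPM with vehicle (SD, n = 3 each) and its log2 fold change was -1.001 (SE 0.72, edgeR adjusted p = 0.564), and 0.0025 without rhCYGB 3 and vehicle 1. Mcm7, another subunit of the ring (gene 17220, chr5:138164589-138171862), read 23.9, 41.3 and 16.1 CPM with rhCYGB and 56.6, 25.0 and 35.1 CPM with vehicle. It differed least of the 7, by -0.52 (SE 0.44, edgeR adjusted p = 0.595), with means of 27.1 ± 12.9 with rhCYGB and 38.9 ± 16.2 CPM with vehicle.

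The other ring subunits resembled Mcm6 more than Mcm7. Mcm2 was at 18.5, 18.9 and 2.71 CPM with rhCYGB and at 53.0, 21.2 and 25.5 CPM with vehicle. Mcm3 was at 17.3, 17.1 and 1.57 CPM with rhCYGB, against 53.0, 20.3 and 22.3 CPM with vehicle. For both genes the groups did not overlap, but rhCYGB 1 and 2 came within a few CPM of vehicle 2. Mcm4 measured 14.3, 5.51 and 0.611 CPM with rhCYGB and 48.3, 10.04 and 13.4 CPM with vehicle. For Mcm5 the values were 15.7, 20.5 and 0.956 CPM with rhCYGB and 52.0, 16.3 and 23.7 CPM with vehicle. In both of these genes the groups overlapped, because 1 rhCYGB library exceeded 1 or more vehicle libraries. Mcm10, which is not part of the ring but helps to start the fork, followed another order, at 12.1, 2.91 and 4.33 CPM with rhCYGB and 15.3, 14.9 and 5.12 CPM with vehicle, and was lowest in rhCYGB 2.

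Subunits of the ring are needed in equal numbers, but their transcripts were not balanced alike in every library. Summed over Mcm2 to Mcm7 the level was 94.4, 58.0 and 9.76 TPM with rhCYGB and 342, 80.1 and 116 TPM with vehicle. Mcm7 made up 22.8%, 31.9% and 63.4% of that sum with rhCYGB and 19.4%, 23.1% and 25.3% with vehicle. Mcm5 made up 10.4%, 11.0% and 2.61% with rhCYGB and 12.4%, 10.5% and 11.9% with vehicle. Mcm4, the least abundant in every library, made up 9.12%, 2.83% and 1.53% with rhCYGB and 11.0%, 6.19% and 6.43% with vehicle. The most abundant subunit was Mcm7 in rhCYGB 3 and Mcm6 elsewhere. It exceeded Mcm4 by 3.44, 11.6 and 41.4 times with rhCYGB and by 2.64, 4.97 and 4.66 times with vehicle. The spread between subunits was therefore widest in rhCYGB 3 and rhCYGB 2. Mcm7 overlaps Cops6 on the other strand, whose level was 86.7, 239 and 256 CPM with rhCYGB and 60.6, 115 and 110.1 CPM with vehicle. The strand setting of the counting is not given in the sources used here, and the part of Cops6 reads in the Mcm7 values was not tested.

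**Figure D2:**
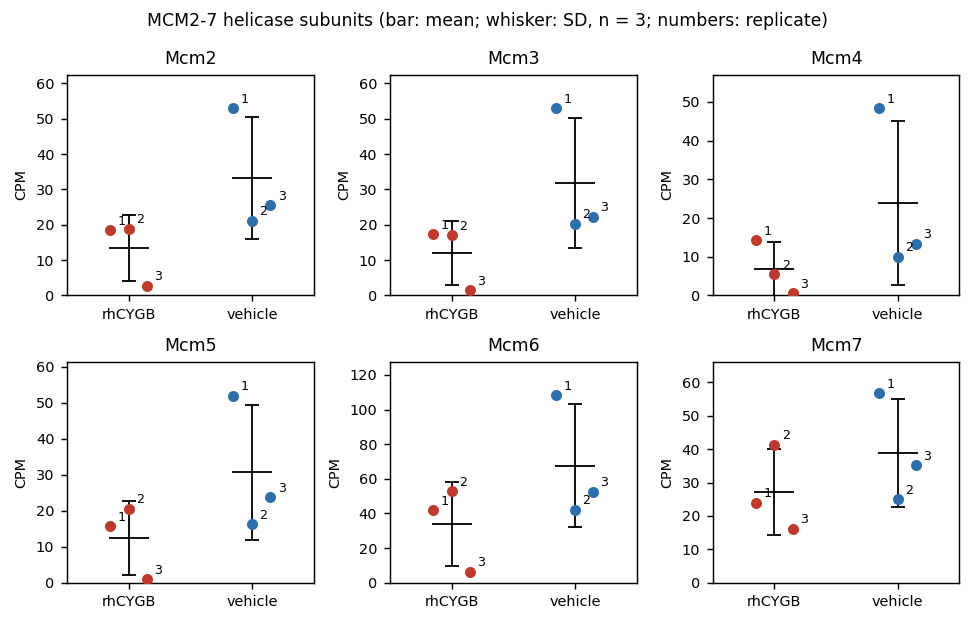
CPM of the 6 ring subunits in each mouse (points, numbered by replicate), with the mean (bar) and SD (whisker, n = 3) of the rhCYGB and vehicle groups. Vehicle 1 is the highest and rhCYGB 3 the lowest point of every panel, while the other 4 mice lie closer together.

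Cdc45 and GINS, which bind the loaded ring and activate it, were lower with rhCYGB in 4 of 4 members by a median of -0.70 on the log2 scale, but Gins1 was above 0 under DESeq2 size factors (0.02). Gins2 (gene 272551, chr8:120581266-120589075) was at 5.83, 11.4 and 2.05 CPM with rhCYGB and at 8.22, 6.46 and 8.43 CPM with vehicle. Gins1 (gene 69270, chr2:150909594-150931280) was at 3.53, 9.80 and 5.21 CPM with rhCYGB and at 6.80, 5.65 and 6.24 CPM with vehicle. Vehicle libraries were close together for both GINS subunits, and the rhCYGB libraries lay on both sides of them. Gins2 averaged 6.44 ± 4.73 CPM with rhCYGB and 7.70 ± 1.08 CPM with vehicle, a log2 fold change of -0.26 (SE 0.56, edgeR adjusted p = 0.815). Gins1 averaged 6.18 ± 3.24 with rhCYGB and 6.23 ± 0.578 CPM with vehicle, a log2 fold change of -0.01 (SE 0.41, edgeR adjusted p = 0.988). Cdc45 and Gins3 had larger differences than these. Cdc45 was at 3.25, 5.46 and 1.25 CPM with rhCYGB and 13.7, 4.45 and 5.19 CPM with vehicle, and Gins3 at 1.62, 2.00 and 0.425 CPM with rhCYGB and 4.35, 2.07 and 2.54 CPM with vehicle. The groups did not overlap for Gins3, by the narrow gap between rhCYGB 2 and vehicle 2. Gins4, the remaining GINS subunit, is not among the 39 and was chosen after its values were seen. It stood at 14.8, 33.7 and 26.7 CPM with rhCYGB and 14.8, 20.3 and 21.0 CPM with vehicle, with a positive log2 fold change of 0.42 (edgeR adjusted p = 0.588).

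All 6 polymerase and primase genes had lower values with rhCYGB, with a median of -0.76, and all 6 were lowest in rhCYGB 3 and highest in vehicle 1. Prim1, the catalytic primase subunit that makes RNA primers (gene 19075, chr10:128015215-128030030), stood at 7.44, 13.6 and 3.93 CPM with rhCYGB and at 14.7, 7.21 and 10.3 CPM with vehicle. Pold1, the catalytic subunit of the lagging strand polymerase delta (gene 18971, chr7:44532744-44548815), stood at 5.85, 11.7 and 4.65 CPM with rhCYGB and at 16.3, 9.31 and 9.79 CPM with vehicle. In both genes rhCYGB 2 was above vehicle 2 and vehicle 3. Prim1 averaged 8.34 ± 4.91 with rhCYGB and 10.7 ± 3.76 CPM with vehicle, a log2 fold change of -0.36 (SE 0.49, edgeR adjusted p = 0.710). Pold1 averaged 7.39 ± 3.76 with rhCYGB and 11.8 ± 3.88 CPM with vehicle, a log2 fold change of -0.67 (SE 0.43, edgeR adjusted p = 0.538). Prim2, the large primase subunit, was among the 5 genes whose groups did not overlap, at 3.18, 3.66 and 1.54 CPM with rhCYGB and 6.14, 4.64 and 4.33 CPM with vehicle. Pola1, the catalytic subunit of polymerase alpha, was at 4.29, 1.61 and 0.797 CPM with rhCYGB and at 10.3, 3.02 and 3.81 CPM with vehicle. Pole, the leading strand polymerase epsilon, was at 5.19, 10.3 and 3.48 CPM with rhCYGB and at 16.0, 4.71 and 7.80 CPM with vehicle. At 7129 bases it has the longest transcript of the 39, and its log2 fold change was -0.58 as scaled and -0.04 with the length trend removed. Pole2, the second subunit of that enzyme, was at 1.67, 0.928 and 0.425 CPM with rhCYGB and at 5.15, 1.49 and 2.04 CPM with vehicle.

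The clamp and its loader differed less than the helicase, with a median of -0.33 and 4 of 5 members lower. Pcna, the ring that holds polymerases on DNA (gene 18538, chr2:132249286-132253180), had the highest level of the 39 genes, with a mean of 43.0 TPM with rhCYGB and 131 TPM with vehicle. Its 6 values were 44.4, 45.8 and 19.3 CPM with rhCYGB and 102, 42.7 and 66.1 CPM with vehicle. Both rhCYGB 1 and rhCYGB 2 were slightly above vehicle 2. The means were 36.5 ± 14.9 with rhCYGB and 70.3 ± 29.9 CPM with vehicle (SD, n = 3 each), a log2 fold change of -0.95 (SE 0.44, edgeR adjusted p = 0.523). Rfc2, a subunit of the clamp loader replication factor C (gene 19718, chr5:134582690-134598328), stood at 26.8, 48.9 and 31.6 CPM with rhCYGB and at 33.4, 35.1 and 34.0 CPM with vehicle. The rhCYGB values lay on both sides of the narrow vehicle range. Averages of 35.7 ± 11.6 with rhCYGB and 34.2 ± 0.844 CPM with vehicle gave a log2 fold change of 0.07 (SE 0.28, edgeR adjusted p = 0.908), which was below 0 with upper-quartile factors (-0.07), library totals (-0.52), TPM and the length trend removed (-0.16). Rfc3, Rfc4 and Rfc5, further loader subunits, had log2 fold changes of -0.59, -0.08 and -0.33. Across these 3 genes the values ran from 4.73 to 16.2 CPM with rhCYGB and from 6.70 to 15.7 CPM with vehicle, and every range overlapped.

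Genes for single-strand DNA binding and for joining lagging strand fragments gave similar values to one another. Rpa2, a subunit of the single-strand binding protein (gene 19891, chr4:132768360-132778746), was at 10.9, 21.3 and 5.29 CPM with rhCYGB and 24.0, 14.8 and 14.5 CPM with vehicle. Fen1, which cuts off the RNA-primed flap (gene 14156, chr19:10199132-10203943), was at 10.5, 11.7 and 3.98 CPM with rhCYGB and 24.5, 11.0 and 13.0 CPM with vehicle. Lig1, the ligase that seals the nick (gene 16881, chr7:13277313-13311427), was at 13.0, 17.4 and 6.14 CPM with rhCYGB and 32.2, 13.7 and 17.5 CPM with vehicle. In each of the 3, rhCYGB 2 lay above vehicle 2, rhCYGB 3 was lowest and vehicle 1 highest. Rpa2 averaged 12.5 ± 8.15 with rhCYGB and 17.8 ± 5.37 CPM with vehicle (log2 fold change -0.51, SE 0.50, edgeR adjusted p = 0.630). Fen1 averaged 8.74 ± 4.17 with rhCYGB and 16.2 ± 7.32 CPM with vehicle (-0.88, SE 0.49, edgeR adjusted p = 0.523), and Lig1 12.2 ± 5.66 with rhCYGB and 21.1 ± 9.76 CPM with vehicle (-0.79, SE 0.47, edgeR adjusted p = 0.528).

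Nucleotide supply genes were divided. Tk1, the thymidine kinase that salvages thymidine in cycling cells (gene 21877, chr11:117815519-117826014), stood at 20.9, 66.9 and 40.4 CPM with rhCYGB and at 20.3, 21.7 and 31.1 CPM with vehicle. It was the member with the largest positive difference, and unlike the ring subunits its rhCYGB 3 value exceeded all 3 vehicle values. Means of 42.7 ± 23.1 with rhCYGB and 24.4 ± 5.90 CPM with vehicle gave a log2 fold change of 0.81 (SE 0.44, edgeR adjusted p = 0.523), which was 0.48 with the length trend removed and -0.06 on log2(TPM + 1). Tk1 overlaps Afmid on the other strand, whose level was 60.4, 109 and 231 CPM with rhCYGB and 39.5, 57.7 and 61.4 CPM with vehicle, and the part of Afmid reads in the Tk1 values was not tested. Rrm2, the regulated subunit of ribonucleotide reductase (gene 20135, chr12:24708254-24714146), was at 22.1, 17.7 and 4.54 CPM with rhCYGB and 54.5, 15.7 and 30.5 CPM with vehicle. Its means were 14.8 ± 9.14 with rhCYGB and 33.5 ± 19.6 CPM with vehicle, with a log2 fold change of -1.18 (SE 0.65, edgeR adjusted p = 0.523). Rrm1, the large subunit of the same enzyme, was at 25.3, 28.3 and 9.22 CPM with rhCYGB and 55.3, 21.0 and 29.0 CPM with vehicle. Tyms, which makes thymidylate, was at 13.0, 21.7 and 10.3 CPM with rhCYGB and 14.4, 13.3 and 16.5 CPM with vehicle, and its log2 fold change of 0.02 was below 0 with upper-quartile factors (-0.10), library totals (-0.53) and TPM.

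Among the chromatin genes the subunits of 1 complex parted. Chaf1a and Chaf1b are the large and middle subunits of chromatin assembly factor 1, which puts histones on new DNA. Chaf1a (gene 27221, chr17:56040416-56068026) was at 7.96, 7.74 and 1.57 CPM with rhCYGB and 19.8, 6.02 and 7.36 CPM with vehicle. Chaf1b (gene 110749, chr16:93883901-93906106) was at 5.57, 19.2 and 11.4 CPM with rhCYGB and 12.5, 7.01 and 9.98 CPM with vehicle. In rhCYGB 3, Chaf1a was at its lowest value and Chaf1b was above its vehicle mean. Chaf1a averaged 5.76 ± 3.63 with rhCYGB and 11.0 ± 7.58 CPM with vehicle, a log2 fold change of -0.94 (SE 0.69, edgeR adjusted p = 0.567), and Chaf1b 12.1 ± 6.84 with rhCYGB and 9.82 ± 2.74 CPM with vehicle, a log2 fold change of 0.30 (SE 0.47, edgeR adjusted p = 0.751) that was -0.41 with library totals and -0.53 on log2(TPM + 1). Uhrf1, which brings the maintenance DNA methyltransferase to replicated DNA (gene 18140, chr17:56303337-56323486), had 13.1, 8.72 and 0.425 CPM with rhCYGB and 69.3, 10.6 and 16.1 CPM with vehicle. Its vehicle mean of 32.0 ± 32.4 CPM was set by vehicle 1, and its rhCYGB mean was 7.41 ± 6.44 CPM. The log2 fold change was -2.10 (SE 1.13, edgeR adjusted p = 0.523).

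Regulators of S phase entry had lower values in 3 of 3 cases. E2f1, an activator of the replication genes (gene 13555, chr2:154559400-154569892), was at 8.25, 6.20 and 2.31 CPM with rhCYGB and 14.7, 7.56 and 9.58 CPM with vehicle. Ccne1 (gene 12447, chr7:38097984-38107490) and Ccne2 (gene 12448, chr4:11191351-11204779) are the E cyclins that activate Cdk2. Ccne1 was at 6.54, 9.41 and 3.45 CPM with rhCYGB and 16.3, 4.60 and 7.47 CPM with vehicle. Ccne2 was at 3.47, 1.19 and 0.319 CPM with rhCYGB and 15.9, 2.01 and 3.11 CPM with vehicle. All 3 genes overlapped between the groups, with vehicle 1 highest and rhCYGB 3 lowest. E2f1 averaged 5.59 ± 3.02 with rhCYGB and 10.6 ± 3.66 CPM with vehicle (log2 fold change -0.92, SE 0.50, edgeR adjusted p = 0.523). Ccne1 averaged 6.47 ± 2.98 with rhCYGB and 9.45 ± 6.09 CPM with vehicle (-0.55, SE 0.55, edgeR adjusted p = 0.635), and Ccne2 1.66 ± 1.63 with rhCYGB and 7.02 ± 7.73 CPM with vehicle (-2.07, SE 1.03, edgeR adjusted p = 0.523).

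**Figure D3:**
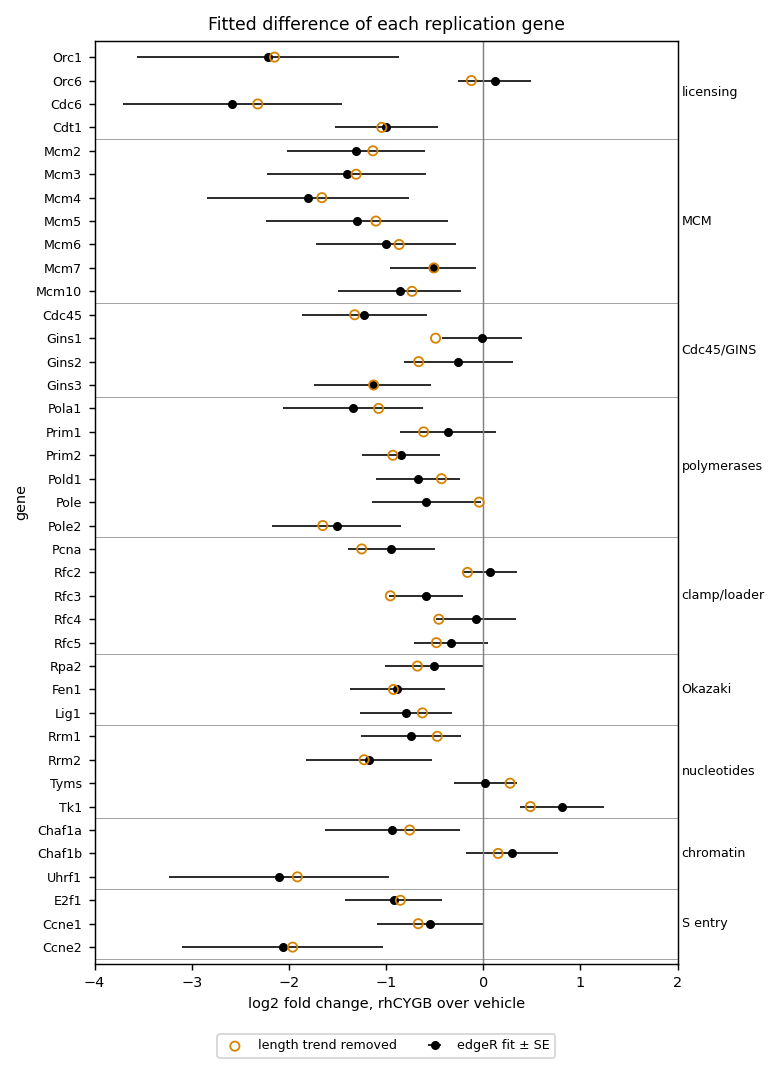
Fitted log2 fold change, rhCYGB over vehicle, of each replication gene (black points, bars ± SE from edgeR), with the value after removal of each library's trend on transcript length (open circles). Of the 39 black points 34 lie below 0, and with the length trend removed 36 do.

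The values of members with and without an E2F word are set side by side here. The 14 with a word were lower in 14 of 14 cases with a median log2 fold change of -1.22, from -2.58 to -0.52. The 18 with a sequence and no word were lower in 14 cases with a median of -0.65, from -1.31 to 0.81. Among these 18, E2f1 and Fen1 had no window placed at the deposited start. Among the 14, the 5 named above held a word only in a window at another start site. The split thus depends in part on which windows were at hand. The sets also differ in traits described below. Transcripts of the 14 had the longer median length, and longer transcripts had more negative values. Among the 18, Cdc45, Chaf1a, Fen1, Orc6, Rfc4, Rfc5 and Tk1 overlap a protein-coding gene on the other strand. Among the 14 only Lig1 and Mcm7 do. The part of these traits in the values was not tested. Mcm6, Mcm5 and Gins3, whose promoters are shown, belong to the 14, and Tk1 to the 18. No test of this difference was made, because the genes share the same 6 libraries.

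Across the 39 genes the log2 fold change was more negative for longer transcripts (Pearson r = -0.53, Spearman rho = -0.53, n = 39 genes, which share all libraries), and over all tested genes the same relation gave r = -0.39 and rho = -0.42. The 39 genes were not longer than the rest, with a median length of 2396 bases against 2752. With the length trend removed their median log2 fold change was -0.85, 36 of the 39 were lower, against 48.7% of all genes, and their library medians were -0.06, 0.24 and -1.23 with rhCYGB and 1.03, -0.03 and 0.20 with vehicle. Of the 12 members that overlap a protein-coding gene on the other strand, 9 were lower with a median of -0.43, and of the other 27 members 25 were lower with a median of -0.95. Values of these 12 (Orc6, Mcm7, Cdc45, Gins2, Rfc2, Rfc4, Rfc5, Fen1, Lig1, Tk1, Chaf1a and Ccne2) are less certain for that reason.

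The rest of the pathway was read from lists of other genes. Of 46 other replication factors 32 were lower and 14 higher with rhCYGB, with a median of -0.46, and 0 passed by edgeR. The pair with the smallest p-values had higher values: Dctpp1, which clears damaged pyrimidine nucleotides, was at 21.8, 92.6 and 121 CPM with rhCYGB and 14.2, 31.5 and 27.6 CPM with vehicle (log2 fold change 1.68, edgeR adjusted p = 0.523). Rnaseh2a, the catalytic subunit of ribonuclease H2, was at 20.3, 71.6 and 77.1 CPM with rhCYGB and 17.0, 27.5 and 25.2 CPM with vehicle (1.28, edgeR adjusted p = 0.523). Both were higher in rhCYGB 2 and 3 than in any vehicle library, while rhCYGB 1 was within the vehicle range. With the length trend removed the log2 fold change was 0.93 for Dctpp1 (634 bases) and 1.21 for Rnaseh2a (2044 bases). Of 32 genes of G1 and S phase control 24 were lower and 8 higher, with a median of -0.30 and 0 past the test. Myc, a growth-promoting transcription factor, was at 16.7, 21.3 and 36.4 CPM with rhCYGB and 10.2, 9.87 and 13.0 CPM with vehicle, so that its groups did not overlap (1.17, edgeR adjusted p = 0.523). Mycn, its relative, was at 0.156, 0.0742 and 0 CPM with rhCYGB and 0.662, 0.525 and 0.285 CPM with vehicle (-2.53, edgeR adjusted p = 0.523).

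Mitosis genes were set beside the replication genes because they peak later in the same cycle. All 20 had lower values with rhCYGB, with a median of -0.96, and 0 passed by edgeR. The pair of smallest p were Bub1, a spindle checkpoint kinase at 2.61, 1.76 and 0.239 CPM with rhCYGB and 4.97, 2.89 and 5.22 CPM with vehicle (-1.49, edgeR adjusted p = 0.523), and Prc1, a midzone microtubule bundler at 11.3, 6.01 and 1.59 CPM with rhCYGB and 19.2, 10.04 and 17.0 CPM with vehicle (-1.29, edgeR adjusted p = 0.523). Library medians of the list were 0.28, 0.08 and -2.16 with rhCYGB and 0.71, 0.25 and 0.90 with vehicle. All 20 were lowest in rhCYGB 3, as were most replication genes. The highest library was not the same: vehicle 3 held the top value of 12 mitosis genes and of 0 replication genes, and vehicle 1 that of 8 mitosis genes and 30 replication genes.

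**Figure D4:**
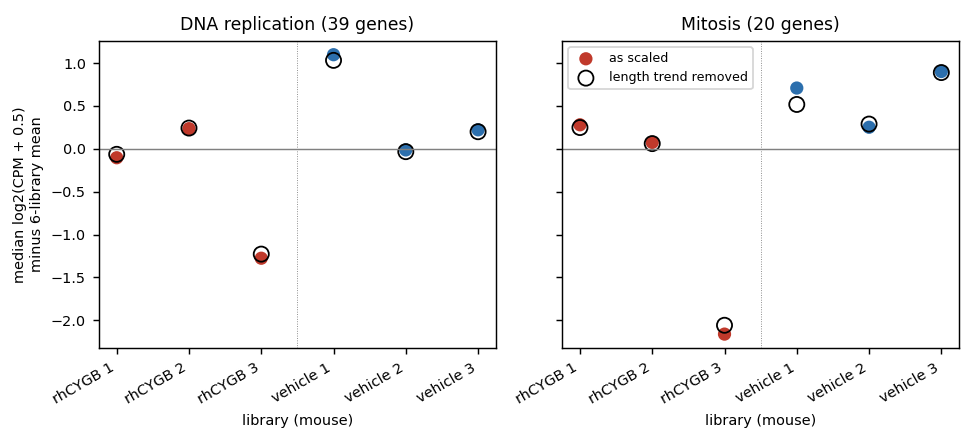
Median deviation from the 6-library mean, log2(CPM + 0.5), of the 39 replication genes (left) and the 20 mitosis genes (right) in each mouse, as scaled (filled) and with the length trend removed (open). Both lists are lowest in rhCYGB 3, and the replication list is highest in vehicle 1, the mitosis list in vehicle 3.

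Markers of cell types also differed between libraries, and not in the same order for each type. Summed hepatocyte markers were 89332, 189972 and 198687 CPM with rhCYGB and 58537, 100137 and 87825 CPM with vehicle. Most of the sum came from Alb, and in CPM 8 of 8 were higher with rhCYGB. This count depends on the scaling, with TMM factors of 0.63 in rhCYGB 3 and 1.45 in vehicle 1. As mean TPM, Ttr (6162 with rhCYGB, 7293 with vehicle) and Cps1 (952 and 1065) were lower with rhCYGB. The other hepatocyte markers were higher, some only slightly, such as Hnf4a (189 and 187). In TPM, Alb was lowest in rhCYGB 3 (62647). Of 7 stellate cell and fibroblast markers 6 were lower, with sums of 608, 499 and 166 CPM with rhCYGB and 955, 859 and 726 CPM with vehicle. Of 8 bile duct markers 6 were lower, with sums of 609, 391 and 222 CPM with rhCYGB and 1082, 971 and 977 CPM with vehicle, most of it from Spp1, while the bile duct keratin Krt19 was at 13.4, 39.5 and 42.3 CPM with rhCYGB and 19.1, 22.4 and 20.5 CPM with vehicle. Of 6 endothelial markers 4 were lower, with sums of 52.6 to 131 CPM with rhCYGB and 88.1 to 126 CPM with vehicle. Of 8 macrophage markers 5 were lower, with sums of 1361 to 2283 CPM with rhCYGB and 1456 to 2431 CPM with vehicle. Of 7 T and NK cell markers 6 were higher, with sums of 5.76 to 7.87 CPM with rhCYGB and 1.98 to 5.99 CPM with vehicle. Sums of neutrophil markers were 38.6 to 56.8 CPM with rhCYGB and 43.1 to 72.6 CPM with vehicle, with Ly6g and Camp at 0 in at least 1 library. Erythroid markers summed to 160, 48.1 and 508 CPM with rhCYGB and 24.1, 554 and 31.3 CPM with vehicle. The largest of these sums came mostly from the globins Hba-a1 or Hbb-bs, and the single erythroid markers were not ordered alike. The stellate and bile duct sums were, like the replication genes, lowest in rhCYGB 3 and highest in vehicle 1. The hepatocyte sum in CPM was highest in rhCYGB 3 and lowest in vehicle 1. Endothelial and macrophage sums were also lowest in rhCYGB 3. The part of cell composition in the values of the replication genes was not tested.

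At the level of transcripts, 0 of 19664 passed by edgeR, and none of the 55 tested transcripts of the 39 genes had an unadjusted p under 0.05. In 9 of the 14 members with 2 or more transcripts the second one held at least 10% of the gene's FPKM (Orc6, Mcm5, Mcm10, Cdc45, Fen1, Tyms, Uhrf1, E2f1 and Ccne2). For Mcm5, singled out after its values were seen, transcript variant 2 made up 20.6%, 0.637% and 0% of the gene's FPKM with rhCYGB and 43.5%, 48.6% and 53.6% with vehicle. Its CPM values did not overlap between the groups, at 3.34, 0.124 and 0 with rhCYGB and 23.9, 8.01 and 13.0 with vehicle, with a log2 fold change of -3.69 (SE 1.97, edgeR adjusted p = 0.802). The share of all transcripts without overlap was not computed. Both Mcm5 variants share start and end, with lengths of 3417 and 3441 bases, and the whole gene had 36 estimated counts in rhCYGB 3. How well reads tell these variants apart was not tested. E2f1 variant 2 made up 73.5%, 34.2% and 5.23% with rhCYGB and 32.6%, 61.8% and 43.2% with vehicle. Tyms variant 2 made up 27.6%, 26.6% and 23.6% with rhCYGB and 5.10%, 27.2% and 20.1% with vehicle, and was lowest in vehicle 1. For Mcm10 the whole gene was assigned to variant 2 in rhCYGB 1 and vehicle 1 and to variant 1 in the other 4 libraries.

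The size of the replication difference varied with scaling and with single libraries, but its sign did not over the settings tried. Relative to the median of all genes, the median of the 39 lay at -0.80 as scaled, -0.79 with upper-quartile factors and -0.79 with library totals. The median of all genes itself was at -0.06, -0.18 and -0.56 under these scalings and at -0.51 on log2(TPM + 1). Sample quality weights in limma-voom, which gave rhCYGB 1 a weight of 0.173 and rhCYGB 3 and vehicle 1 weights of 0.473 and 0.457, brought the median of the 39 to -0.26 with 25 lower, against 53.5% of all genes. That setting called 4410 genes, among them Tk1 and Chaf1b, both higher with rhCYGB. An unadjusted p under 0.05 was then found for 7 of the 39, against 46.2% of all genes. By limma on log2(TPM + 1) such a p was found for 7 of the 39, against 7.78% of all genes, and on log2(TPM + 0.1) for 5, against 7.64%. It was found for 2 with the length trend removed, against 10.3% of all genes, and for 1 with no expression filter, against 7.67%. With 1 library left out it was found for 5 without rhCYGB 2 (against 3.25%), 4 without vehicle 2 (against 3.52%), 1 without vehicle 3 (against 2.7%), 0 without rhCYGB 3 (against 2.48%) and 0 without vehicle 1 (against 2.04%). Groups that did not overlap, all lower with rhCYGB, numbered 9 of the 39 with library totals, against 14.8% of all genes, and 8 on either TPM scale, against 12.7%.

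**Figure D5:**
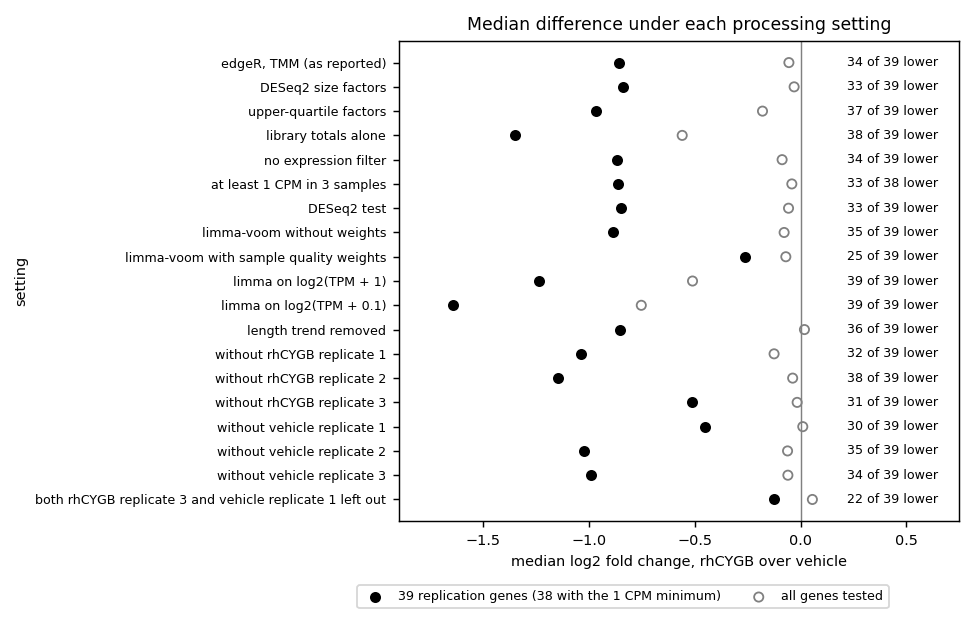
Median log2 fold change, rhCYGB over vehicle, of the replication genes (filled) and of all tested genes (open) under each processing setting (vertical axis), with the number of replication genes below 0 at the right. The replication median lies below 0 in every setting shown and nearest to it, at -0.13, when rhCYGB 3 and vehicle 1 are both left out.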

How the data were processed

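Livers of 6 DDC-fed mice were compared, 3 given rhCYGB and 3 given vehicle. Replicates are numbered in the order of deposition and pair no animals. The authors deposited estimated counts and FPKM for each gene and transcript in every library. Per the submitters' processing notes, FastQC 0.11.7, HISAT2 2.1.0, StringTie 1.3.4d and the mouse build mm10 were used. Neither the annotation release nor the strand setting of the counting is recorded in those notes or headers. In the deposited files the estimated count of a feature was its FPKM times its length times 1 constant per library. Counts and FPKM are thus the same estimate on different scales, and both still carry the error of read sampling. The estimated counts were tested as if they were read counts. Every column matched a sample (0 unmatched).

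Estimated counts were tested with edgeR 4.0.16 (glmQLFit and glmQLFTest, robust, TMM, filterByExpr) in R 4.3.3, with Benjamini-Hochberg adjustment over all 14415 genes kept and a threshold of 0.05. CPM was computed on TMM-scaled totals, and TPM from the deposited FPKM. The length trend is a loess curve (span 0.3) of log2(CPM + 0.5) deviations on log2 transcript length, removed as offsets. Alternatives were other scalings and filters, DESeq2 1.42.0, limma 3.58.1 (voom with and without sample quality weights, and log2 of TPM with a pseudocount of 1 or 0.1), removal of the length trend and leaving out libraries. Promoter words were searched as exact matches, and neighbouring genes were taken from GENCODE M21 (GRCm38).

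The members, the gene lists and the tests were chosen with earlier results of these data known. Full statistics are given for the 2 members of highest mean TPM in each role group, or for all members of groups of 3 or fewer. In each pathway list, where none passed, the 2 genes with the smallest p are named. Of members with 2 or more transcripts, those whose second one held at least 10% of the gene's FPKM are named. Other genes and transcripts with statistics are said to have been chosen after their values were seen. The values of 1 marker list are not reported here.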

Additional observations from a re-analysis of the deposited data

How the results depend on the processing

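The median log2 fold change of the replication genes was below 0 under every alternative tried. It was -1.643 by limma on log2(TPM + 0.1), and -0.126 with both rhCYGB 3 and vehicle 1 left out, an alternative chosen after seeing the data. With 1 library left out it ran from -1.146 (without rhCYGB 2) to -0.4543 (without vehicle 1). Genes called numbered 62 by the DESeq2 test, 4410 by limma-voom with sample quality weights and 0 to 3391 with 1 library left out (3391 without rhCYGB 1, 0 otherwise). Replication genes called numbered 2 with quality weights and 0 to 4 with 1 library left out. Those with an unadjusted p under 0.05 numbered 1 with no expression filter (7.67% of all genes), 6 by the DESeq2 test (all lower, 2.83% of all genes), 7 with quality weights (46.2% of all genes), 7 on log2(TPM + 1) (7.78%), 5 on log2(TPM + 0.1) (7.64%), 2 with the length trend removed (10.3%) and 0 to 8 with 1 library left out (2.04% to 42%). Those whose groups did not overlap numbered 9 with library totals alone (14.8% of all genes), 8 on log2(TPM + 1), 8 on log2(TPM + 0.1) (12.7% on both) and 5 to 21 with 1 library left out (9.04% to 34.5%), where fewer libraries make non-overlap easier. Transcripts called numbered 0 to 958 with 1 library left out (958 without rhCYGB 1).

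Some single genes changed sign. Gins1 was at 0.01727 with DESeq2 size factors and 0.006542 by the DESeq2 test, and Tyms at -0.03245 by limma-voom without weights. Upper-quartile factors gave Orc6 -0.01833, Rfc2 -0.06613 and Tyms -0.1013, and library totals gave Orc6 -0.5369, Rfc2 -0.5189, Tyms -0.5253 and Chaf1b -0.4107. The length trend removed gave Orc6 -0.1233 and Rfc2 -0.1629. On log2(TPM + 1) Orc6 was at -0.6489, Rfc2 at -0.7041, Tyms at -0.6585, Tk1 at -0.06008 and Chaf1b at -0.5256, and on log2(TPM + 0.1) Orc6 was at -0.7081, Rfc2 at -0.7227, Tyms at -0.7727, Tk1 at -0.06209 and Chaf1b at -0.5754. Quality weights gave Mcm7 0.1207, Gins1 0.4831, Gins2 0.1991, Prim1 0.2577, Pole 0.3146, Rfc4 0.4442, Rfc5 0.02971, Rpa2 0.1777 and Ccne1 0.2714. Without rhCYGB 3 and vehicle 1 the values were Mcm6 0.002482, Mcm7 0.1183, Gins1 0.1622, Gins2 0.2136, Prim1 0.2672, Pole 0.3097, Rfc4 0.3178, Rfc5 0.05591, Rpa2 0.1313, Rrm1 0.09792, Chaf1a 0.2314 and Ccne1 0.4014. With 1 library left out, Gins1 ran from -0.5118 to 0.2658, Gins2 from -0.9712 to 0.1662, Rfc4 from -0.5925 to 0.1757, Pole from -1.134 to 0.01623, Ccne1 from -0.9206 to 0.09887, Orc6 from -0.2678 to 0.3612, Rfc2 from -0.2279 to 0.2324, Tyms from -0.3457 to 0.2327 and Chaf1b from -0.2069 to 0.6373. The cause was not tested. No paired analysis was possible because the labels give the groups no shared replicate numbers.

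With 3 mice a group and 1 low and 1 high library, fold changes had standard errors of 0.28 to 1.34 on the log2 scale. Low genes such as Orc1, with 0 to 70 estimated counts with rhCYGB and 41 to 317 with vehicle, are the least certain.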

Other observations

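Further genes of the pathway lists, chosen after their values were seen, are given here. Rnaseh2c, the third subunit of the ribonuclease H2 complex, was at 23.1, 97.6 and 71.0 CPM with rhCYGB and 14.1, 31.6 and 29.9 CPM with vehicle, a log2 fold change of 1.34 (edgeR adjusted p = 0.523), like its catalytic partner Rnaseh2a. For Rnaseh2c, which is 646 bases long, it was 0.64 with the length trend removed. E2f2, an activator E2F like E2f1, was at 4.54, 1.80 and 1.12 CPM with rhCYGB and 10.9, 4.26 and 6.04 CPM with vehicle (-1.50, edgeR adjusted p = 0.523). Samhd1, which breaks down deoxynucleotides in resting cells, was at 21.0, 17.3 and 19.3 CPM with rhCYGB and 28.6, 22.5 and 28.0 CPM with vehicle, so that its groups did not overlap (-0.46, edgeR adjusted p = 0.523).

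Neighbours on the other strand did not always share the direction of a member, as these examples, chosen after their values were seen, show. Pxmp2, whose start lies close to that of Pole on the other strand, was at 80.8, 269 and 385 CPM with rhCYGB and 45.6, 110 and 95.8 CPM with vehicle (1.55, edgeR adjusted p = 0.523). Ubxn6, which overlaps Chaf1a on the other strand, was at 40.4, 130 and 181 CPM with rhCYGB and 37.3, 53.9 and 46.7 CPM with vehicle (1.35, edgeR adjusted p = 0.523). Vps35, which overlaps Orc6 and shares its start region, had lower values with rhCYGB, at 107, 54.1 and 44.3 CPM with rhCYGB and 112, 76.1 and 91.8 CPM with vehicle (-0.45, edgeR adjusted p = 0.595).

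Cdc6 was assigned to different transcripts in different libraries. All of its FPKM went to variant 1 in rhCYGB 2 and 3, and all of it to variant 2 in rhCYGB 1 and in the 3 vehicle libraries. Ccne2 was likewise assigned to variant 1 alone in rhCYGB 2 and 3, with 64 and 12 estimated counts there.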
